A study of Rattus norvegicus with 11 samples.

Results

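The cannabinoid receptor gene Cnr1 and the genes of 3 enzymes that make or break down its lipid ligands, Faah, Mgll and Napepld, were followed in medial prefrontal cortex, in rats with a history of heroin self-administration and in rats given yoked saline infusions. The 4 genes were picked by name from the array design. Of the 41012 different non-control probes on the array, 6 target them, with 2 for Cnr1, 2 for Faah, 1 for Mgll and 1 for Napepld. The gene name in the files found 5 of these. The Napepld probe carries the older symbol NAPE-PLD there and was found by its RefSeq accession.

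RNA came from male rats aged 4 months, 1 array per rat, with 6 heroin self-administering and 5 yoked saline rats. Every rat in both groups had a jugular catheter and daily sessions on 14 days, then 14 days of abstinence and 1 extinction session without drug, after which the tissue was taken at once. In the yoked design, the infusions a heroin rat earned set the times of the saline infusions of another rat. The saline rats control for handling and for being placed in the extinction session, but not for responding in it. The paper reports more goal-directed responding in that session in heroin than in yoked saline rats. The saline rats had also not earned their infusions. Heroin exposure, operant experience of drug delivery and responding in the session therefore cannot be told apart between these groups. Nothing in the sample records ties a saline rat to its heroin partner.

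Cnr1 encodes the CB1 receptor, a receptor on axon terminals that acts through inhibitory G proteins and limits transmitter release. Its lipid ligands are made on demand by the cells that receive the signal and travel backwards across the synapse. Napepld makes N-acylethanolamines, anandamide among them, and Faah hydrolyses anandamide. Mgll hydrolyses most of the other main ligand, 2-arachidonoylglycerol (2-AG). In cortex, Cnr1 transcript is known to be highest in interneurons that contain cholecystokinin and lower in many excitatory neurons.

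The probes are shown because the 2 Cnr1 probes differ in base composition. The ratio of their signals, given below, did not separate the response of the downstream probe from that of the upstream probe. Each probe has 60 bases, of which the Cnr1 downstream probe and the Faah downstream probe are shown by their first 30. The G and C bases are in capitals, and all sequences run 5′ to 3′ as the array files give them.
Cnr1 upstream probe: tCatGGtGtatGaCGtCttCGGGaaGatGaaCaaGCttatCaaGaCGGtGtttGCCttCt
Cnr1 downstream probe: aaGCCtaCaGtatattttatttCattGatG
Napepld probe: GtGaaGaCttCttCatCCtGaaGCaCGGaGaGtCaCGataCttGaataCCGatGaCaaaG
Faah upstream probe: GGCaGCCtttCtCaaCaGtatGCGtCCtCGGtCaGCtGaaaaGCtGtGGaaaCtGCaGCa
Faah downstream probe: aCaaGataGaCaCaGGGaCatGtCCttGGC
Mgll probe: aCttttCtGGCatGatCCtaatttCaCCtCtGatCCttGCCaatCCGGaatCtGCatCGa

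All 6 probes lie on the plus strand in the rat build rn3, by the coordinates in the array files. The Cnr1 upstream probe (A_43_P11563) lies at chr5:50445298-50445357 and the downstream probe (A_44_P1030258) at chr5:50449402-50449461, so their starts are 4104 bases apart. The Faah upstream probe (A_44_P228891) spans chr5:136331013-136331764, 752 bases of genome for 60 bases of probe, and so crosses at least 1 intron. The Faah downstream probe (A_43_P14968) lies at chr5:136333713-136333772, the Mgll probe (A_44_P268864) at chr4:123149443-123149502 and the Napepld probe (A_44_P451930) at chr4:8845633-8845692. The probes printed whole above were taken to lie in coding sequence, and the Cnr1 and Faah downstream probes, printed in part, were not. This placement was not checked against a genome annotation. The share of G and C was 21.7% in the whole Cnr1 downstream probe, 53.3% in the Faah upstream probe and 45% in the other 4.

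Signals are given in array medians, the background-corrected signal divided by the median of all non-control probes of the same array. The level of one probe cannot be set against that of another, since probes bind with different strength. All 6 probes were well above background on all 11 arrays and none was saturated. Their mean signals stood between 3.31 times (Napepld) and 75.2 times (Cnr1 upstream) the lowest signal scored well above background. A probe is called changed where limma's unadjusted p was under 0.02 and the difference was at least 1.4-fold, the thresholds of the methods. By that rule 2.72% of the 25555 tested probes were called, 1.79% as higher and 0.927% as lower in the heroin rats. The test of the methods allows unequal variances, and with it 308 probes were called here. At the same thresholds, with 1 more saline array, the paper lists fewer genes than either test called probes. Why these counts differ was not tested. After adjustment over all tested probes, 0 were under 0.05 in limma (the lowest adjusted p was 0.263), while 4723 had an unadjusted p under 0.05, as did 4127 with the methods' t-test.

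With this scaling the median change of all tested probes, heroin minus saline, was itself 0.18 in log2 units, and 78.7% of them were higher in heroin rats. After quantile normalization, which gives every array the same distribution of signals, that median was 0.01. Changes are therefore given with both. Every heroin array had position 4 and every saline array position 3 in the array identifiers of the file headers, so array position and treatment cannot be told apart. Arrays with the same replicate number had the same scan time, and 5 such scan passes held 1 rat of each group.

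Of the 6 probes, 1 was called, the Cnr1 downstream probe, which was higher in the heroin rats, against 1.79% of all tested probes. After quantile normalization 0 of the 6 were called, against 1.79% of all tested probes in either direction (0.853% higher and 0.935% lower), and none had an unadjusted p under 0.05, against 7.71%. The methods' t-test called 0 of the 6, against 1.21% of all tested probes (0.845% higher and 0.36% lower), and gave 3 of them an unadjusted p under 0.05, against 16.1%. Under the main scaling 4 of the 6, both Cnr1 and both Faah probes, had an unadjusted limma p under 0.05, against 18.5%. Both Faah probes were higher in every heroin rat than in any saline rat, against 1.66% of all tested probes, and lower in every heroin rat was none, against 0.129%. After quantile normalization the groups overlapped on all 6 probes, against 0.36% of tested probes that were higher and 0.2% that were lower in every heroin rat. Mgll and Napepld passed no threshold.

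The CB1 receptor gene was read first by its upstream probe, the brighter of the pair. In heroin replicates 1 to 6 the signal was 22.4, 21.6, 21.6, 20.5, 17.5 and 24.7 array medians, and in saline replicates 2 to 6 it was 16.7, 14.5, 18.2, 20.8 and 15.4. The groups overlapped, with 4 heroin rats above all saline rats, heroin replicate 5 among the saline values and saline replicate 5 among the heroin values. The mean was 21.4 ± 2.36 array medians (SD, n = 6) in heroin and 17.1 ± 2.50 (SD, n = 5) in saline rats.
The log2 difference, heroin minus saline, was 0.33 (SE 0.13, 95% interval 0.05 to 0.61), with a limma p of 0.0259, an adjusted p of 0.263 and an exact permutation p of 0.0216. This is 1.25-fold and did not pass either threshold. The change stood 0.14 above the median of all tested probes, and after quantile normalization it was 0.09 (95% interval -0.12 to 0.29). With the scan pass as a block it was 0.31 (SE 0.18).

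The downstream Cnr1 probe is printed as 10 spots on each array. Its signal in heroin replicates 1 to 6 was 15.7, 15.0, 15.5, 16.0, 20.1 and 19.2 array medians, and in saline replicates 2 to 6 it was 7.56, 7.97, 12.2, 18.1 and 12.0. Saline replicates 2 and 3 were at about the same low level and saline replicate 5 was above 4 of the heroin rats, so the groups overlapped through that 1 rat. The mean was 16.9 ± 2.16 array medians (SD, n = 6) against 11.6 ± 4.25 (SD, n = 5).
The log2 difference was 0.61 (SE 0.20, 95% interval 0.19 to 1.04), or 1.53-fold, with a limma p of 0.00808, an adjusted p of 0.263 and an exact two-sided permutation p of 0.0238. Of all tested probes, 99.3% had a lower change with this scaling and 95.5% after quantile normalization. After quantile normalization the difference was 0.37 (95% interval -0.0042 to 0.74) and was not called. Leaving out saline replicate 2 gave 0.48 (SE 0.19) and leaving out saline replicate 3 gave 0.50 (SE 0.20), neither of them called. These were the 2 of 11 such omissions that lost the call. Leaving out saline replicate 5 gave 0.79 (SE 0.17), which was called. With the scan pass as a block it was 0.63 (SE 0.18) and was called.

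The downstream Cnr1 signal varied more between rats than between the spots of an array. The SD over the 10 spots of an array was between 0.07 and 0.11 on the log2 scale, with a median of 0.08. The SD over rats was 0.18 in the heroin group and 0.52 in the saline group. A correction of each array for base composition, in 10 bins of probe GC content, gave 0.28 (SE 0.13) for this probe, which was not called. That correction was chosen after the data were seen.

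**Figure D1:**
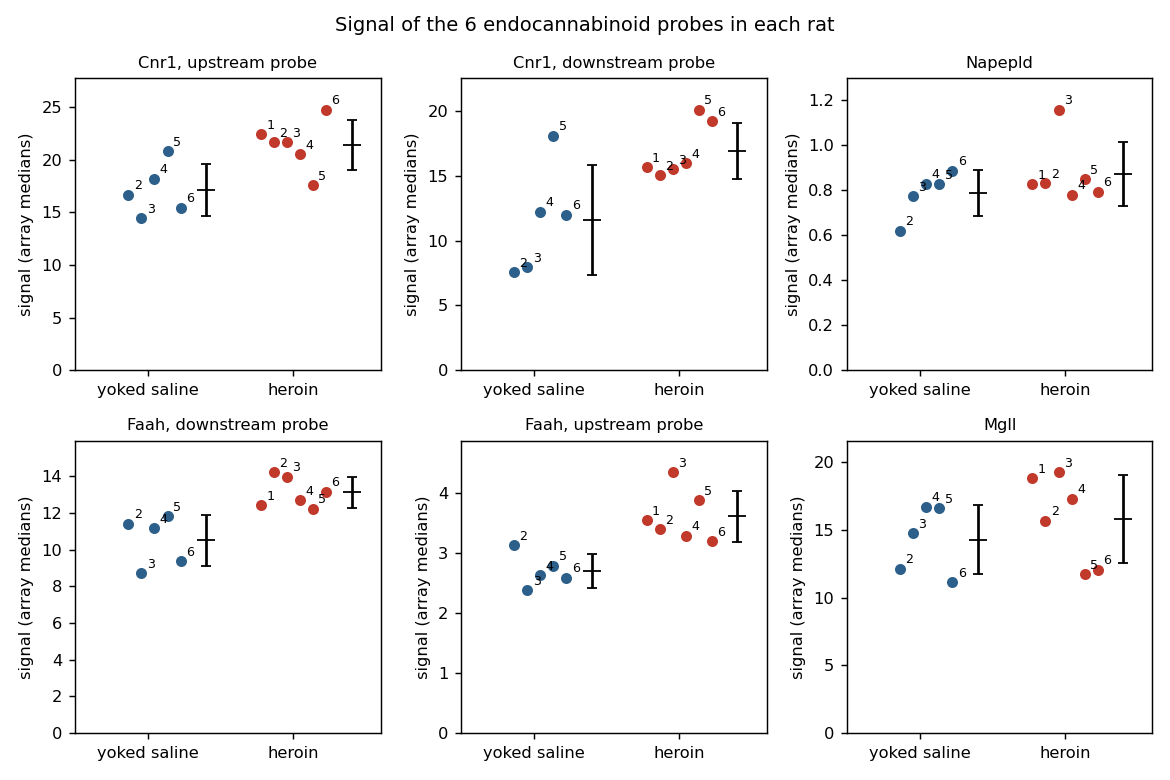
Signal of each probe (array medians, linear axis from 0) in each rat, with the replicate number beside the point, yoked saline in blue (n = 5) and heroin in red (n = 6). Black bars give mean and SD. The heroin and saline points separate fully for the 2 Faah probes, overlap through saline replicate 5 for the Cnr1 downstream probe and overlap widely for Mgll and Napepld.

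The 2 Cnr1 probes were also set against each other within each rat, which removes the scaling of the array. The log2 ratio of downstream to upstream signal averaged -0.34 ± 0.27 (SD, n = 6) in heroin and -0.63 ± 0.38 (SD, n = 5) in saline rats. The difference of 0.29 was within the spread of the rats (exact permutation p = 0.195, adjusted p = 0.357 over the 2 ratios computed). Across the 11 rats the log2 signals of both probes had a Pearson r of 0.72 with the main scaling and 0.26 after quantile normalization. Both probes share the array and its scaling, and these values hold the difference between the groups too. With each group's mean removed, the r after quantile normalization was 0.07. By the ratio, these data do not separate the response of the downstream probe from that of the upstream probe.

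**Figure D2:**
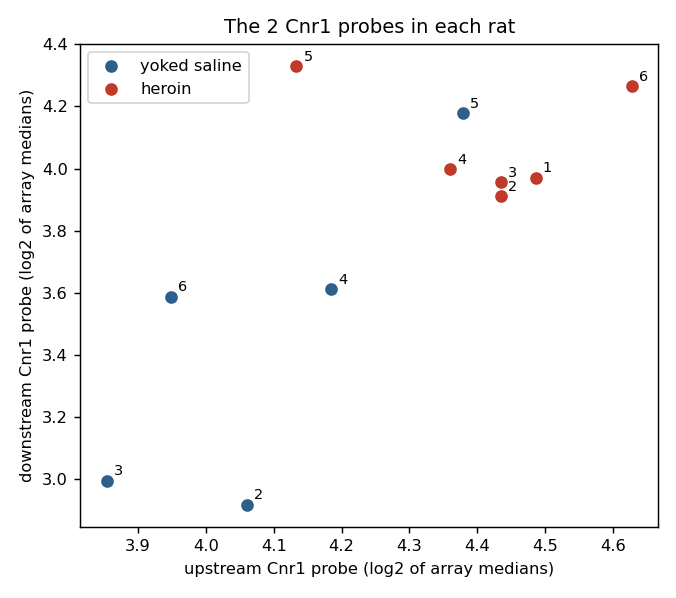
Log2 signal (array medians) of the upstream Cnr1 probe on the horizontal axis and of the downstream probe on the vertical axis, 1 point per rat with its replicate number, saline in blue and heroin in red. Saline replicates 2 and 3 lie lowest on the downstream probe, and saline replicate 5 lies among the heroin rats on both probes.

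Faah, the main anandamide hydrolase, separated the groups on both of its probes. On the downstream probe, the brighter one, heroin replicates 1 to 6 were at 12.4, 14.2, 14.0, 12.7, 12.2 and 13.2 array medians, and saline replicates 2 to 6 at 11.4, 8.71, 11.2, 11.8 and 9.37. The highest saline rat was below the lowest heroin rat. The means were 13.1 ± 0.825 (SD, n = 6) and 10.5 ± 1.37 (SD, n = 5) array medians.
Heroin minus saline in log2 signal was 0.33 (SE 0.12, 95% interval 0.07 to 0.59), with a limma p of 0.0162, an adjusted p of 0.263 and an exact permutation p of 0.00216, the smallest that the 462 divisions of the rats can give. At 1.26-fold it passed the p threshold and not the fold threshold. After quantile normalization it was 0.09 (95% interval -0.14 to 0.31), and with the scan pass as a block 0.34 (SE 0.17).

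The upstream Faah probe, which crosses an intron, gave 3.55, 3.40, 4.35, 3.29, 3.88 and 3.20 array medians in heroin replicates 1 to 6 and 3.13, 2.38, 2.63, 2.79 and 2.59 in saline replicates 2 to 6. Saline replicate 2 came closest to the heroin rats and did not reach the lowest of them. The means were 3.61 ± 0.432 (SD, n = 6) and 2.70 ± 0.280 (SD, n = 5) array medians.
On the log2 scale the difference was 0.42 (SE 0.12, 95% interval 0.15 to 0.68), or 1.33-fold, with a limma p of 0.00457, an adjusted p of 0.263 and an exact permutation p of 0.00216. It again fell short of the fold threshold. After quantile normalization it was 0.23 (95% interval -0.05 to 0.50), and with the scan pass as a block 0.42 (SE 0.17).
The log2 ratio of the upstream to the downstream Faah probe was -1.87 ± 0.18 (SD, n = 6) in heroin and -1.95 ± 0.12 (SD, n = 5) in saline rats, a difference of 0.09 (exact permutation p = 0.357). Across the 11 rats their log2 signals had a Pearson r of 0.82, and of 0.77 after quantile normalization. With each group's mean removed, the r after quantile normalization was 0.75. Rats high on one Faah probe were thus mostly high on the other under either scaling, as a description of these arrays.

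**Figure D3:**
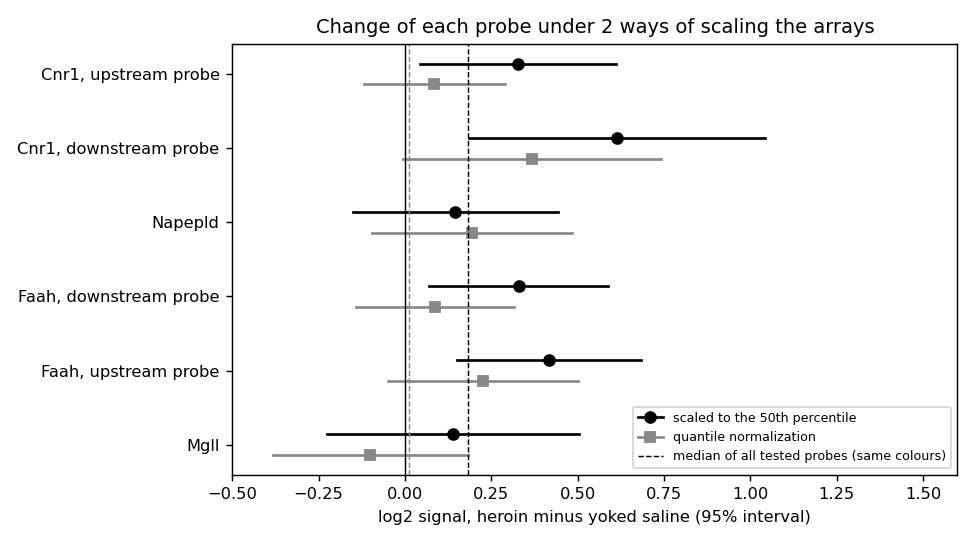
Log2 difference, heroin minus yoked saline, of each probe with its 95% interval, with each array scaled to its 50th percentile (black circles) and after quantile normalization (grey squares). Dashed lines mark the median of all tested probes, 0.18 and 0.01. Each interval that lies above 0 in black, those of Cnr1 and Faah, reaches below 0 in grey.

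Napepld, the phospholipase D that releases N-acylethanolamines, was the dimmest member. Its 10 spots averaged 0.826, 0.830, 1.157, 0.779, 0.849 and 0.793 array medians in heroin replicates 1 to 6 and 0.619, 0.773, 0.829, 0.825 and 0.886 in saline replicates 2 to 6. Heroin replicate 3 stood above all other rats, saline replicate 2 below them, and the rest of both groups shared one range. The means were 0.872 ± 0.142 (SD, n = 6) and 0.786 ± 0.102 (SD, n = 5) array medians.
In log2 signal the groups differed by 0.15 (SE 0.14, 95% interval -0.15 to 0.44, limma p = 0.311, exact permutation p = 0.374). After quantile normalization it was 0.19 (95% interval -0.10 to 0.48) and with the 75th percentile as the scale it was -0.07. For this dim probe the spots of 1 array differed about as much as the rats did. The SD over spots had a median of 0.24 on the log2 scale, against 0.21 over heroin and 0.20 over saline rats.

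Mgll, the monoacylglycerol lipase that ends the 2-AG signal, was at 18.8, 15.7, 19.3, 17.3, 11.7 and 12.1 array medians in heroin replicates 1 to 6 and at 12.15, 14.8, 16.7, 16.6 and 11.1 in saline replicates 2 to 6. Both groups held rats near the bottom and near the top of the range. The means were 15.8 ± 3.28 (SD, n = 6) and 14.3 ± 2.56 (SD, n = 5) array medians.
In log2 signal the groups differed by 0.14 (SE 0.17, 95% interval -0.23 to 0.50, limma p = 0.429, exact permutation p = 0.446), which was 0.04 less than the median of all tested probes. After quantile normalization it was -0.10 (95% interval -0.38 to 0.18). These intervals leave room for a difference in either direction. Single rats moved the main value by over 1.5 times, to between 0.05 (without saline replicate 6) and 0.22 (without heroin replicate 5).

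Within the 5 scan passes the heroin rat was compared with the saline rat scanned at the same time. On the Cnr1 downstream probe the heroin rat was higher in all 5, by between 0.15 and 0.99 on the log2 scale, and after quantile normalization by between 0.23 and 0.59. On the Cnr1 upstream probe it was higher in 4 of 5, with the differences between -0.25 and 0.68, and in 3 of 5 after quantile normalization, with the differences between -0.05 and 0.26. Both Faah probes were higher in all 5, by 0.05 to 0.68 downstream and by 0.12 to 0.87 upstream, but after quantile normalization each was higher in 4 of 5. Mgll was higher in 4 of 5 with the main scaling and in 1 of 5 after quantile normalization. Napepld was higher in 3 of 5 under both. How many of all tested probes reach the same counts was not computed, so whether these counts are particular to the 6 probes is not known. By group means, 78.7% of all tested probes were higher in heroin rats with the main scaling, and 53.2% after quantile normalization.

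**Figure D4:**
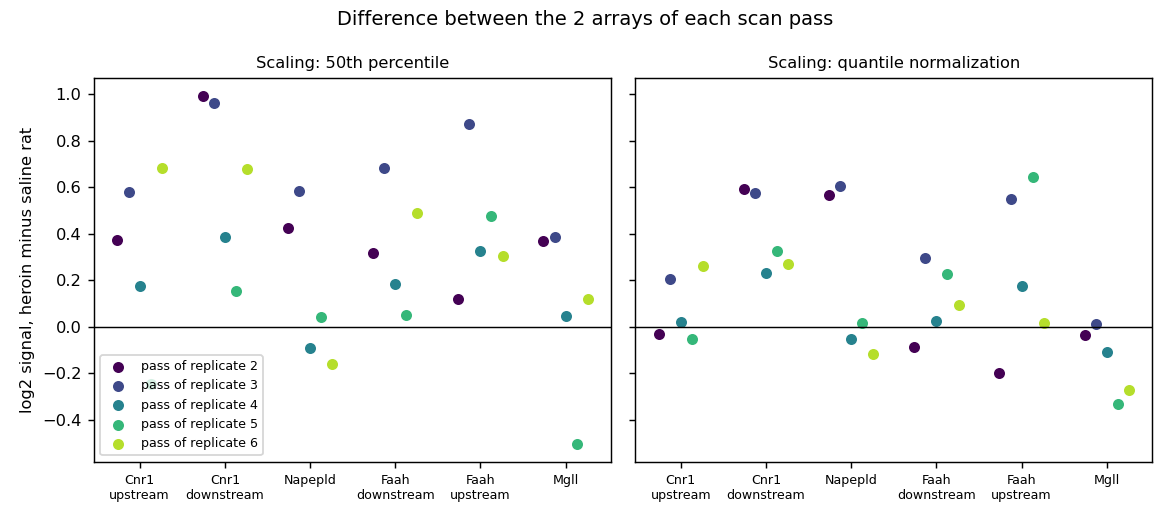
Log2 difference between the heroin and the saline rat of each of the 5 scan passes, for each probe, with the arrays scaled to the 50th percentile (left) and after quantile normalization (right), coloured by the replicate number the pair of arrays shares. The Cnr1 downstream probe is above 0 in every pass in both panels, and the share of all tested probes that are so was not computed.

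The other genes of the pathway were taken from a list of 29, of which 28 had a probe on the array and 20 were tested, each by its brightest probe. Of these 20, 2 were called, against 2.72% of all tested probes. Both, Ptgs2 and Gnai1, were higher in the heroin rats, against 1.79%. The same 2 were called after quantile normalization, against 1.79% of all tested probes in either direction and 0.853% higher. The median change of the 20 was 0.30 on the log2 scale, against 0.18 for all tested probes, and after quantile normalization it was 0.06, against 0.01. Higher in the heroin rats were 19 of 20 with the main scaling, against 78.7% of all tested probes, and 12 of 20 after quantile normalization, against 53.2%, so the direction of 7 genes turned on the scaling.

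Of the receptors and partners, Cnr2 and Cnrip1 were detected on all arrays and tested, and Cnr2, the gene of the CB2 receptor, had the larger change of the pair. Heroin rats had 0.843 ± 0.311 array medians (SD, n = 6) and saline rats 1.07 ± 0.322 (SD, n = 5), a log2 difference of -0.36 (SE 0.26, exact permutation p = 0.264), and -0.36 after quantile normalization. That value was -0.57 with the 75th percentile as the scale, -0.15 with normexp background correction, and between -0.57 and -0.23 when single rats were left out, the ends being set by leaving out saline replicates 5 and 2. Cnr2 was the 1 tested gene of the list that was lower in the heroin rats with the main scaling, and the groups overlapped. A second Cnr2 probe, detected on 9 of the 11 arrays and so not among the tested probes, differed by -0.06 (exact permutation p = 0.781). The receptor genes Gpr119 and Gpr55, detected on 10 and 5 of the 11 arrays, were not tested. Trpv1, an ion channel that anandamide also opens, was not well above background on any array.

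Of the genes that make 2-AG, Daglb, a diacylglycerol lipase, was at 18.1 ± 1.97 array medians (SD, n = 6) in heroin and 14.4 ± 2.01 (SD, n = 5) in saline rats. The log2 difference of 0.34 (SE 0.13, exact permutation p = 0.0130) was 1.26-fold and was not called, and it was 0.10 after quantile normalization. The other diacylglycerol lipase gene, Dagla, was not matched to a probe and was not analysed here. The phospholipases C of the list that were tested, Plcb1, Plcb3 and Plcb4, differed by 0.04, 0.05 and 0.16.

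Ptgs2, which encodes cyclooxygenase-2, was called among the genes that break down or oxidise 2-AG. The enzyme oxygenates 2-AG but is best known for making prostaglandins, and cortical neurons induce the gene with activity. Its signal ranged from 6.29 to 11.5 array medians in heroin rats (median 9.20) and from 3.60 to 8.85 in saline rats (median 5.54), with 3 of 6 heroin rats above all saline rats. The log2 difference was 0.76 (SE 0.23, limma p = 0.00444, adjusted p = 0.263, exact permutation p = 0.0216), and 0.55 after quantile normalization. A second Ptgs2 probe was well above background on 2 of the 11 arrays and was not tested. The serine hydrolases Abhd6 and Abhd12, which cleave the rest of 2-AG, differed by 0.34 and 0.19 and were not called.

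Gnai1, the gene of an inhibitory G protein subunit that serves CB1 and many other receptors, ranged from 2.66 to 3.47 array medians in heroin rats (median 3.05) and from 1.44 to 3.72 in saline rats (median 1.86). One saline rat was above all heroin rats, so the groups overlapped. The log2 difference was 0.63 (SE 0.21, limma p = 0.00806, adjusted p = 0.263, exact permutation p = 0.0325), and 0.51 after quantile normalization. The call was lost in 7 of 25 alternatives. It was lost when either saline replicate 2 (0.52) or saline replicate 3 (0.51) was left out, the same rats as for the downstream Cnr1 probe. The other losses were with the 75th percentile (0.41) or the median of detected probes (0.44) as the scale, normexp (0.44), GC bins (0.36) and the methods' t-test. Its relatives Gnai3, Gnao1 and Gnai2 differed by 0.47, 0.31 and 0.29 and were not called.

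Of the genes around Napepld and Faah, Gde1, a phosphodiesterase in another route to anandamide, had the largest change, 0.34 (SE 0.15, exact permutation p = 0.0498), and 0.10 after quantile normalization. Of the lipid carriers it was Fabp7, the fatty acid binding protein of astrocytes and radial glia, at 81.4 ± 15.2 array medians (SD, n = 6) in heroin and 61.6 ± 12.5 (SD, n = 5) in saline rats, a log2 difference of 0.41 (SE 0.17, exact permutation p = 0.0455), and 0.16 after quantile normalization. Neither was called. The nuclear receptor genes Ppara and Pparg, whose products N-acylethanolamines also bind, were not tested, since Ppara was detected on 7 and Pparg on 0 of the 11 arrays.

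**Figure D5:**
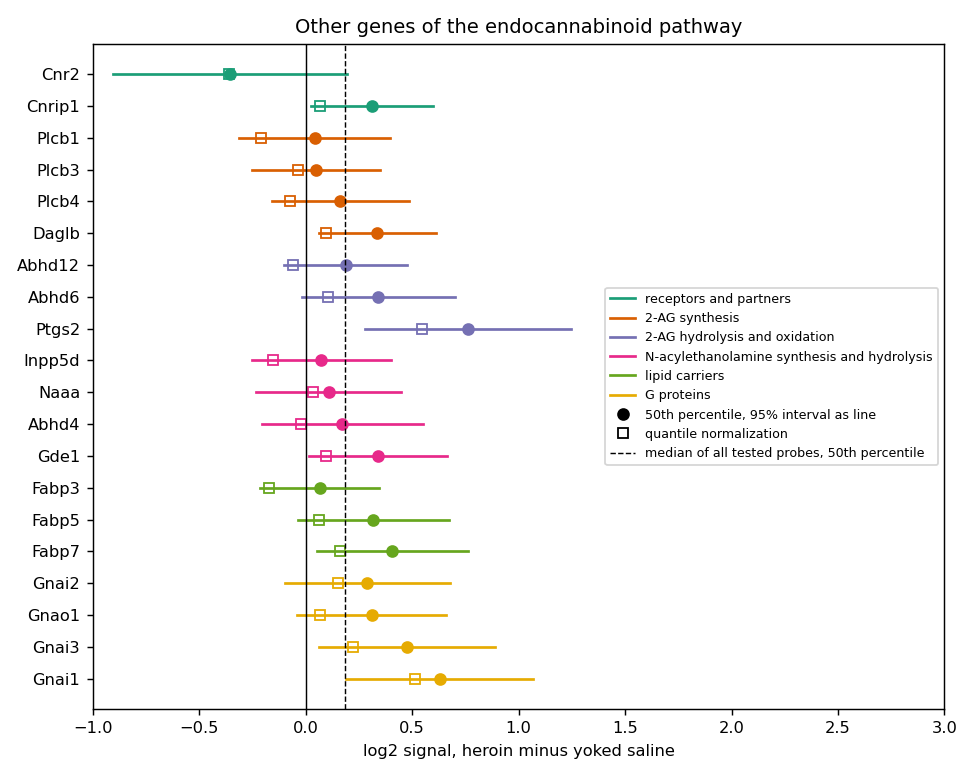
Log2 difference, heroin minus yoked saline, of the 20 tested genes of the pathway list, grouped by role in colour. Filled circles with 95% intervals use the 50th percentile scaling and open squares quantile normalization, and the dashed line marks the median of all tested probes at 0.18. Ptgs2 and Gnai1 have the largest changes, and most open squares of the other genes lie close to 0.

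In tissue RNA, a change in the number of cells that carry a transcript and a change in RNA per cell cannot be told apart. A list for cholecystokinin interneurons, the cells with most Cnr1, held Cck, Gad1, Gad2, Htr3a, Vip and Reln, all detected (6 of 6). Whether these genes are particular to those cells was not tested. Their summed signal ranged from 464.0 to 687.3 array medians in heroin and from 397.3 to 577.2 in saline rats. Most of that sum was the Cck probe alone, at 333.8 to 523.1 in heroin and 308.3 to 440.0 in saline rats. All 6 were higher in the heroin rats with the main scaling, against 78.7% of all tested probes, and 4 of 6 after quantile normalization, against 53.2%. Their median change was 0.28 on the log2 scale, and 0.13 after quantile normalization. Of these, 1 was called as higher, against 1.79% of all tested probes, and after quantile normalization 0 were, against 0.853%. That gene, named after its values were seen, was Vip, with a log2 difference of 0.49 (SE 0.13, exact permutation p = 0.00433).
The 4 measured markers of excitatory cortical neurons were all detected, with sums from 37.7 to 70.3 in heroin and from 38.9 to 46.4 in saline rats. Of these markers, 0 of 4 were called, against 2.72% of all tested probes. All 4 were higher in the heroin rats with the main scaling, against 78.7% of all tested probes. After quantile normalization 3 of 4 were, against 53.2%. The median changes were 0.34 and 0.14. The groups overlapped widely in oligodendrocyte markers, with sums from 352.7 to 883.7 in heroin and from 296.3 to 925.0 in saline rats. They overlapped widely in blood markers as well, with sums from 452.2 to 1370 and from 676.1 to 1322. Striatal markers, which would mark tissue from below the cortex, summed to 37.0 to 47.1 in heroin and to 30.8 to 79.6 in saline rats. No tested marker of astrocytes, oligodendrocytes, microglia, endothelium, blood or striatum was called, against 2.72% of all tested probes. Every matched marker was detected on at least 1 array, and the part of any of these lists in the Cnr1 and Faah differences was not tested.

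The genes whose pattern over the 11 rats was most like that of a member were found among 11072 or 11073 gene-named probes by Pearson's r of quantile-normalized log2 signals, with each group's mean removed. Zhx1 was most like Cnr1 upstream (r = 0.96, and 0.96 with the main scaling), then Dusp13 (0.94) and C2 (0.93). Cyb5r3 was most like Faah downstream (r = 0.96, and 0.94 with the main scaling), then Sertad1 (0.93) and Tecta_predicted (0.92). For Napepld these were Mfn2 (0.95), Ube2d3 (0.94) and Cnksr3 (0.94), and for Mgll Rbm27_predicted (0.95), Fchsd2_predicted (0.94) and Lrig1_predicted (0.93). Among so many candidates and 11 rats that share each array, values of this size describe these arrays only. With the main scaling the r of Dusp13 with Cnr1 was 0.30 and that of Tecta_predicted with Faah 0.19.
Among the members themselves, r was also taken without removing the group means, so that it holds the difference between the groups too. Cnr1 upstream and Faah downstream had such an r of 0.86 over the 11 rats with the main scaling and of 0.62 after quantile normalization. Mgll and the downstream Cnr1 probe had an r of 0.17 and of -0.66. With each group's mean removed, the values after quantile normalization were 0.58 and -0.64. These points share an array and its scaling.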

How the data were processed

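Cy3-labelled cRNA of each rat was hybridised to its own single-colour Agilent array. The authors deposited the intensity of every spot after background correction in Feature Extraction (9.5.1.1 in the headers), before any scaling. They deposited relative values too, and this ratio per probe and rat served as an alternative. The methods give 1 more saline array, which was not analysed here.

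Excluded were control spots and, on each array, 99 to 231 spots flagged as non-uniform or as outliers. Signals under 5 were set to 5, log2 was taken, spots of a probe were averaged and each array's median over all non-control probes was subtracted. Detection required at least 0.5 of a probe's spots to be well above background. Probes detected on all arrays, with 2 or more usable arrays per group, were tested with limma 3.58.1 (lmFit and eBayes in R 4.3.3, two-sided). P-values were adjusted by Benjamini-Hochberg for 25555 probes. Single probes were tested by a two-sided exact permutation test over 462 divisions of the rats. Median signals were 42.7 to 78.3 on heroin and 58.0 to 83.2 on saline arrays, and the number of arrays limits the precision.

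The text names the members, pathway genes past both thresholds, the largest absolute change of each role and the 3 most alike genes of each member. Members and lists were chosen with earlier results of these data known. The fits were tested on simulated data. Other scalings, normexp (offset 50), filters, tests, array weights, the replicate block and leaving out each rat were tried.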

Additional observations from a re-analysis of the deposited data

Results flagged for a closer look

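The Napepld signal of heroin replicate 3 was 1.157 array medians, against 0.849 in the nearest heroin rat, and stood apart from the other 5 rats of its group by Dixon's test. It was 1 of 24 probe and group combinations tested for the genes named in the text, and chance flags about 5% of such combinations. Without this rat the Napepld difference was 0.06 on the log2 scale, against 0.15 with it, and it was 0.06 without saline replicate 2 as well.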

How the results depend on the processing

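The Cnr1 upstream and Faah downstream probes kept their direction, and stayed short of a call, under all 26 alternatives each, with log2 changes of the probe itself from 0.09 to 0.43 and from 0.09 to 0.40. The mean of both probes of the gene gave 0.47 for Cnr1 and 0.37 for Faah. The Cnr1 downstream probe kept its direction under 25 alternatives (0.28 to 0.79) and lost its call in 7, among them the 75th percentile (0.40), the median of detected probes (0.42), quantile normalization (0.37) and the methods' t-test. Mgll turned negative with the 75th percentile (-0.079), quantile normalization (-0.10), the median of detected probes (-0.052) and GC bins (-0.0078), and Napepld with the 75th percentile (-0.071), the median of detected probes (-0.044) and GC bins (-0.00031). These are the settings that lower the median of all probes, from 0.18 to between -0.03 and 0.01. Of the pathway list, 2 genes were called, against 1 with the 75th percentile, the median of detected probes, normexp or GC bins, 0 with the methods' t-test, 6 with array weights and 1 to 4 without single rats (1 without saline replicate 2 or 3, 4 without saline replicate 4).

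The count of all probes called, 694, was 457 with quantile normalization, 126 with normexp, 1560 with no filter, 1067 with detection in 1 group, 308 with the methods' t-test and 2488 with array weights. It was 343 to 2352 without single rats, with 343 without saline replicate 2, 393 without saline replicate 3 and 2352 without saline replicate 5. Array weights gave 8425 probes an adjusted p under 0.05, 4 of the member probes among them, and no other setting gave more than 1. Why the counts moved was not tested. The replicate block is also the scan-pass block, so the slide was not fitted apart, and it leaves out heroin replicate 1, which has no partner. With the replicate block 805 probes and 2 pathway genes were called, and the member changes ranged from 0.08 (Mgll) to 0.63 (Cnr1 downstream). Deviations of same-numbered rats correlated by 0.38, -0.13, 0.35, 0.02 and -0.24 for numbers 2 to 6, and 2 of the 5 saline rats correlated best with the heroin rat of their own number, so beyond the shared scan time a pairing of the rats was not established.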
